A study of Rattus norvegicus with 18 samples.

Results

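The oligodendrocyte lineage was followed in cultures of rat astrocytes and rat microglia through 9 genes, chosen by symbol: Olig1, Olig2, Sox10, Pdgfra, Cspg4, Mbp, Cnp, Mag and Mog. All 9 were listed among the 17307 gene symbols of the astrocyte tables and the 17327 of the microglia tables, and all 9 passed the filter on low counts in both cell types. RNA sequencing counts came from 18 libraries, with 3 replicates in each of 6 groups. The groups were control, Aβ42 fibril-treated and Aβ40 fibril-treated cells of each type, all labelled WT and collected after 24 h. Aβ42 and Aβ40 are the longer and the shorter form of the amyloid peptide that builds the plaques of Alzheimer's disease.

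Both cell types were raised from mixed glial flasks of neonatal Sprague-Dawley cortex. Gentle shaking released the microglia, and harder shaking of the same flasks was then used to clear oligodendrocyte precursor cells from the layer that became the astrocyte cultures. The medium was changed to serum-free medium for the fibril treatment. Nothing in the labels ties a replicate to a separate litter or flask, so the p-values measure the spread between these samples, which may be technical.

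Oligodendrocytes wrap axons in myelin, and they arise from progenitor cells that divide and migrate before they mature. The basic helix-loop-helix factors Olig1 and Olig2 and the HMG-box factor Sox10 set up and maintain the lineage. Progenitors carry the platelet-derived growth factor receptor alpha, made from Pdgfra, and the NG2 proteoglycan, made from Cspg4. Maturing cells then turn on genes of the myelin sheath. Cnp encodes a cyclic nucleotide phosphodiesterase of the non-compact myelin, Mbp the basic protein that compacts the membranes, Mag an adhesion protein that faces the axon, and Mog a late protein of the outermost surface. Several of these genes are also read outside the lineage: Olig2 in some astrocytes, Pdgfra in fibroblasts, Cspg4 in pericytes, and Mbp in other cells as golli transcripts.

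Olig2, Cspg4 and Cnp were 3 of the genes that rose with both fibrils in microglia, as given further on, and the 250 bases before their annotated start sites are shown to place that shared change beside the DNA in front of the genes. The sequences are RefSeq promoters of the build GRCr8, which is not the build rn5 to which the reads were aligned, and 6 of the 9 genes had an entry in the table used. Capitals mark a match to CANNTG, the E-box bound by basic helix-loop-helix factors, or to ACAAAG, a core bound by SOX factors, on either strand.
Olig2, chr11:43961335-43961584, plus strand: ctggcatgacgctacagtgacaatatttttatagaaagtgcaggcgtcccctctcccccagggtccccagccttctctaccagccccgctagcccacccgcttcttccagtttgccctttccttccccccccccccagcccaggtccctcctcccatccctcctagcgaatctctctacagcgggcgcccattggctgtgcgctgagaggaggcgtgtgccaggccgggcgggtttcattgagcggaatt
Cspg4, chr8:66160692-66160941, plus strand: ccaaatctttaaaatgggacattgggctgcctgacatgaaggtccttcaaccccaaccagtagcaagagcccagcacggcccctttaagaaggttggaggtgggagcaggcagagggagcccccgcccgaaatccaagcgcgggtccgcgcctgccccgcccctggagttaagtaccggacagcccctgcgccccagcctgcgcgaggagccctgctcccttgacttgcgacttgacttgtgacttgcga
Cnp, chr10:86011254-86011503, plus strand: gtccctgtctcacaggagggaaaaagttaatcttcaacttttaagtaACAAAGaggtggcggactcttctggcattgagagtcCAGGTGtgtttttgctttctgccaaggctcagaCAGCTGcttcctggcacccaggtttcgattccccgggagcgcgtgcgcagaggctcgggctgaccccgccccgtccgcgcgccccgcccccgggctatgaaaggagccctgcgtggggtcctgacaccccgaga
The Cnp window held 2 E-box matches, 1 of which read CAGCTG, and 1 match to the SOX core. The Olig2 and Cspg4 windows held 0 matches to either motif, which says only that these letters were not in these 250 bases. Windows of genes that did not rise in microglia, not printed here, also held matches. For Mbp, 1 window held 3 E-box matches and 1 SOX core match, and another held 0. The Mag window held 1 match to each motif, and the Pdgfra window held 1 E-box match. The part of these motifs in any change was not tested. Of 33469 rat promoter windows of the same length, 65.5% held an E-box, 12% held its CAGCTG form, which counts under both, and 16.3% held the SOX core.

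The counts on genes of a library ran from 3674043 to 19013919 in astrocytes and from 2271834 to 22274367 in microglia. Levels are given as scaled CPM, the count relative to the library's total on genes, adjusted by the TMM method within the cell type. The detection limit, set at 3 counts, came to 0.160 to 0.835 scaled CPM in the astrocyte libraries and 0.130 to 1.38 in the microglia libraries. These limits cover only counting error. Of the astrocyte libraries, control replicate 2 stood apart, with the lowest control value for 7 of the 9 genes. Of the microglia libraries, Aβ42 replicate 1 stood apart, with 2613723 counts against 22274367 and 17687416 in the other replicates. The labelled cell types carried their own markers. The 10 astrocyte markers summed to 11102 ± 1359 scaled CPM (SD, n = 3) in control astrocytes and 1397 ± 102 (SD, n = 3) in control microglia. The 10 microglia markers summed to 410 ± 42.5 (SD, n = 3) and 8141 ± 678 (SD, n = 3).

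**Figure D1:**
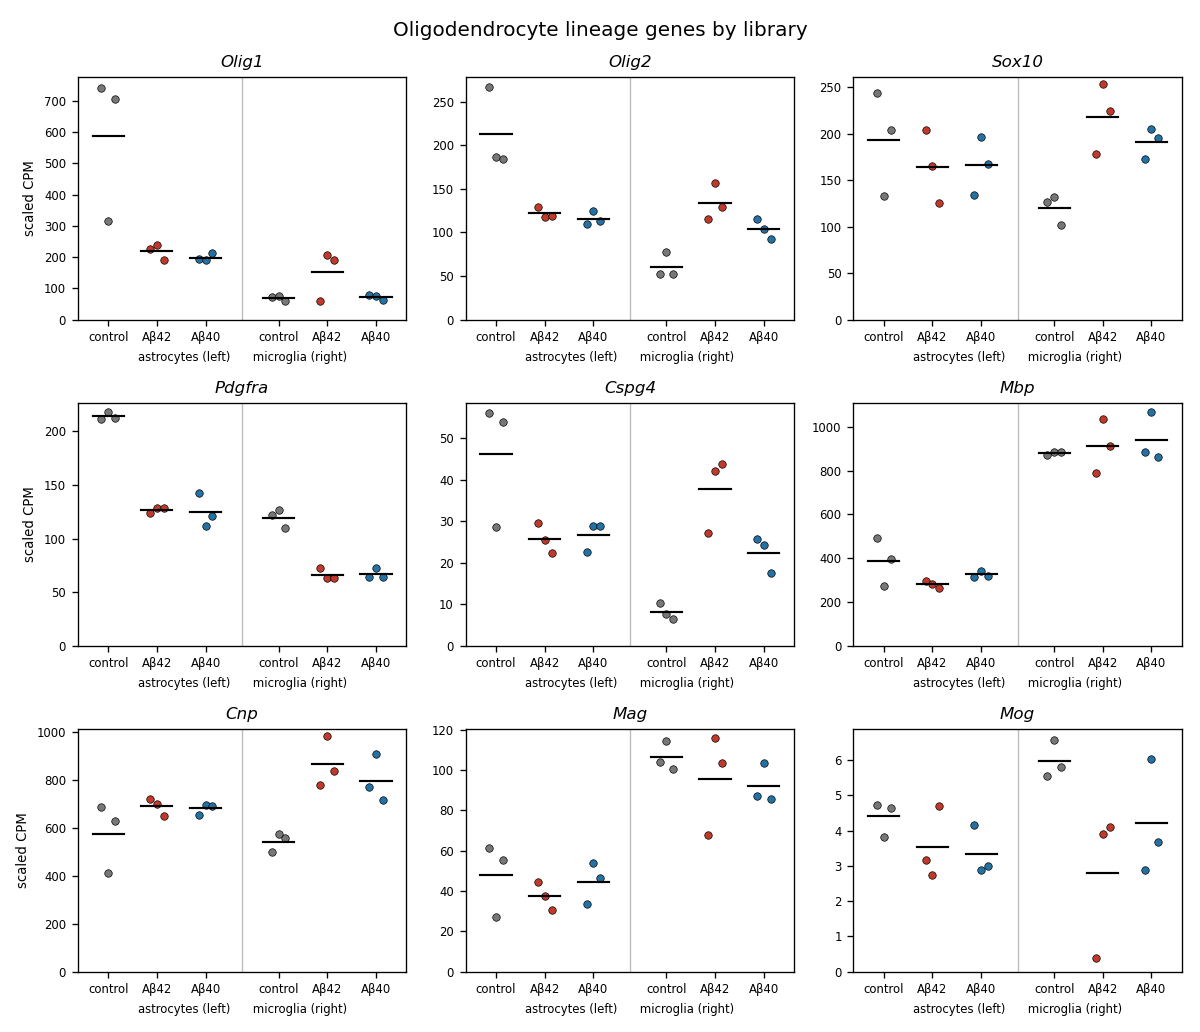
Scaled CPM (vertical axis, from 0, scaled within each cell type) of each of the 9 genes in each of the 18 libraries (points), with the group mean as a bar, for control, Aβ42 and Aβ40 groups of astrocytes on the left and microglia on the right of each panel. Olig1 and Pdgfra lie highest in control astrocytes, Cspg4 rises from 8.13 scaled CPM in control microglia to 37.7 with Aβ42 fibrils, and Mbp and Mag lie higher in microglia than in astrocytes.

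Untreated astrocyte and microglia cultures were compared first, to see where each gene was higher before any fibril was added. Astrocyte cultures had more of Olig1, Olig2, Cspg4 and Pdgfra, and microglia cultures had more of the myelin genes Mbp and Mag. At an adjusted p under 0.05, 4 of the 9 genes were higher in astrocytes and 2 were lower, while 68.8% of the 11581 genes tested differed, 34.5% as higher and 34.2% as lower. DESeq2's Wald test called 5 of the 9 as higher and 2 as lower. The control libraries of the cell types did not overlap for 7 of the 9 genes, against 67.1% of all genes tested. The RNA is from whole cultures, in which fewer cells of a type and less RNA per cell cannot be told apart. Cell type also cannot be told apart from any step in which the preparations differed.

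Olig1 showed the widest gap between the cultures. The log2 fold change of astrocytes against microglia was 2.84 (SE, the standard error, 0.34; adjusted p = 5.16e-07 by the quasi-likelihood test of edgeR, adjusted after Benjamini and Hochberg over all genes), a 7.16-fold difference. Cspg4 followed at 2.24 (SE 0.26, adjusted p = 3.03e-07, edgeR), Olig2 at 1.57 (SE 0.18, adjusted p = 2.06e-07, edgeR) and Pdgfra at 0.59 (SE 0.11, adjusted p = 1.20e-04, edgeR). All 3 control astrocyte libraries lay above all 3 control microglia libraries for these 4 genes. For the myelin genes Mbp and Mag the order turned round. Mbp was lower in astrocytes by a log2 fold change of -1.44 (SE 0.16, adjusted p = 2.10e-07, edgeR), and Mag by -1.39 (SE 0.25, adjusted p = 6.03e-05, edgeR). Sox10 (0.44, standard error 0.21, adjusted p = 0.0735), Cnp (-0.17, standard error 0.15, adjusted p = 0.344) and Mog (-0.67, standard error 0.34, adjusted p = 0.0894) did not pass the edgeR threshold. Sox10 passed it, at an adjusted p of 0.00515 and a log2 fold change of 0.64, without astrocyte control replicate 2.

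This comparison depended on the scaling more than the others did. With library totals in place of TMM the median log2 fold change of all genes moved by 0.28, and 62.6% of the genes called were higher in astrocytes in place of 50.2%. Cnp then changed sign, to 0.10, while the other 8 genes kept their direction.

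In microglia treated with fibrils, transcription factor genes and the NG2 gene were higher than in controls, and the growth factor receptor gene was lower. With Aβ42 fibrils 5 of the 9 genes rose (Olig1, Olig2, Sox10, Cspg4 and Cnp) and 1 fell (Pdgfra), while of the 10837 genes tested 53.7% were called, 27.1% as higher and 26.6% as lower. With Aβ40 fibrils 4 rose (Olig2, Sox10, Cspg4 and Cnp) and 1 fell (Pdgfra), against 41% of all genes called, 19.6% as higher and 21.4% as lower. Mbp, Mag and Mog did not pass the test with either fibril. Treated and control libraries did not overlap for 6 of the 9 genes with Aβ42 fibrils, where 54% of all genes did not, and for 5 with Aβ40 fibrils, where 59.5% did not. Both comparisons use the same 3 control libraries, so they are not independent of each other.

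Cspg4 had the greatest change of the 9. Its scaled CPM was 10.2, 7.73 and 6.41 in the control microglia replicates, 27.2, 42 and 43.8 with Aβ42 fibrils, and 25.6, 24.2 and 17.5 with Aβ40 fibrils. Every treated library lay above every control library. Relative to control the log2 change was 2.24 with Aβ42 fibrils (SE 0.22, adjusted p = 3.90e-06, edgeR), or 4.73-fold. It was 1.47 with Aβ40 fibrils (SE 0.24, adjusted p = 3.51e-04, edgeR), or 2.77-fold.

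Olig2 rose with both fibrils as well. The control microglia libraries had 52.2, 77.1 and 51.9 scaled CPM, the Aβ42 libraries 115, 157 and 129, and the Aβ40 libraries 115, 104 and 92.9. No treated library reached down to the controls. The fitted log2 changes were 1.16 with Aβ42 fibrils (SE 0.17, adjusted p = 1.09e-04, edgeR) and 0.79 with Aβ40 fibrils (SE 0.17, adjusted p = 0.00273, edgeR).

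Olig1, the neighbour of Olig2 in function and sequence family, moved in only some of the libraries. Its scaled CPM was 71.5, 76.9 and 58.9 in control microglia, 60.4, 207 and 191 with Aβ42 fibrils, and 77.5, 76.3 and 64.4 with Aβ40 fibrils. Aβ42 replicate 1 lay among the controls, and the other Aβ42 replicates lay well above them. The log2 fold change with Aβ42 fibrils was 1.18 (SE 0.32, adjusted p = 0.00797, edgeR), and it was 1.53 without Aβ42 replicate 1. With Aβ40 fibrils it was 0.08 (SE 0.33, adjusted p = 0.869, edgeR).

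Sox10, which binds enhancers of myelin genes, rose by a smaller factor. Its scaled CPM was 127, 132 and 102 in control microglia, 178, 253 and 224 with Aβ42 fibrils, and 173, 205 and 195 with Aβ40 fibrils. No treated library overlapped the controls, while the treated groups overlapped each other. Relative to control the log2 change was 0.87 with Aβ42 fibrils (SE 0.14, adjusted p = 3.35e-04, edgeR) and 0.67 with Aβ40 fibrils (SE 0.15, adjusted p = 0.00297, edgeR).

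Pdgfra was the only one of the 9 genes that fell in microglia at this threshold. Its scaled CPM was 122, 127 and 110 in the controls, 72.8, 62.8 and 62.9 with Aβ42 fibrils, and 63.9, 72.2 and 64.4 with Aβ40 fibrils. All treated libraries lay below all controls. Relative to control the log2 change was -0.86 with Aβ42 fibrils (SE 0.11, adjusted p = 3.21e-05, edgeR) and -0.83 with Aβ40 fibrils (SE 0.11, adjusted p = 6.99e-05, edgeR).

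Of the myelin genes, Cnp rose and the others did not pass the test. The scaled CPM of Cnp was 498, 573 and 557 in control microglia, 777, 982 and 837 with Aβ42 fibrils, and 768, 908 and 715 with Aβ40 fibrils, with no overlap between treated and control libraries. Against control, the log2 changes were 0.67 (SE 0.12, adjusted p = 6.80e-04, edgeR) and 0.56 (SE 0.12, adjusted p = 0.00329, edgeR). Mbp stayed within a narrow band, from 871 to 887 scaled CPM in the controls, 790 to 1035 with Aβ42 fibrils and 861 to 1068 with Aβ40 fibrils. The log2 changes were 0.05 (SE 0.12, adjusted p = 0.732, edgeR) and 0.09 (SE 0.12, adjusted p = 0.586, edgeR). Mag ranged from 101 to 114 scaled CPM in the controls, 67.6 to 116 with Aβ42 fibrils and 85.5 to 104 with Aβ40 fibrils. The fitted log2 changes were -0.12 (SE 0.16, adjusted p = 0.542, edgeR) and -0.20 (SE 0.17, adjusted p = 0.368, edgeR).

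Mog was counted 47, 34 and 38 times in the control microglia, 1, 90 and 72 times after Aβ42 treatment, and 12, 27 and 8 times after Aβ40 treatment. As scaled CPM these counts were 5.54 to 6.57, 0.400 to 4.11 and 2.90 to 6.04. The single count in Aβ42 replicate 1 lay under the detection limit of 1.20 scaled CPM of that library. Against control, the log2 changes were -0.72 (SE 0.33, adjusted p = 0.0820, edgeR) and -0.45 (SE 0.39, adjusted p = 0.392, edgeR), and the first passed the threshold, at an adjusted p of 0.0309, without Aβ42 replicate 1.

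The fibrils were then compared with each other in microglia. Olig1 was higher with Aβ42 than with Aβ40 fibrils by a log2 difference of 1.10 (SE 0.33, adjusted p = 0.0377, edgeR), and Cspg4 by 0.77 (SE 0.21, adjusted p = 0.0307, edgeR). These 2 of 9 compare with 20.3% of all genes called, 11.3% as higher with Aβ42 fibrils. The libraries did not overlap for Olig2 and Cspg4, 2 of the 9 genes, against 29.3% of all genes. The number of lineage genes called rested on single libraries. Leaving out Aβ42 replicate 1 gave 5, and leaving out any other Aβ42 or Aβ40 replicate gave 0. Both calls were also lost in a fit of the Aβ42 and Aβ40 libraries alone, at adjusted p values of 0.0963 for Olig1 and 0.0742 for Cspg4 in edgeR. None of the 9 was lower with Aβ42 fibrils by edgeR, with 0 at an unadjusted p under 0.05 and 0 by DESeq2's Wald test, and 9.01% of all genes were lower.

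In astrocytes the genes that passed the edgeR test all fell, and none was a myelin gene. Olig1, Olig2, Pdgfra and Cspg4 fell with each fibril, 4 of the 9 genes. Of the 11690 genes tested 37% were called with Aβ42 fibrils, 20.4% as lower, and 33.3% with Aβ40 fibrils, 18.4% as lower. No lineage gene rose with either fibril by edgeR, with 0 at an unadjusted p under 0.05 and 0 by DESeq2's Wald test, and the shares of all genes that rose were 16.5% and 14.9%. Treated and control libraries did not overlap for 3 of the 9 genes with each fibril (Olig1, Olig2 and Pdgfra), against 45.7% and 43.2% of all genes. As in microglia, both comparisons share their control libraries.

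Olig1 fell the most. Its scaled CPM was 742, 315 and 707 in the control astrocyte replicates, 226, 238 and 191 with Aβ42 fibrils, and 193, 191 and 212 with Aβ40 fibrils. Control replicate 2 lay far below the other controls but above every treated library. Relative to control the log2 change was -1.43 with Aβ42 fibrils (SE 0.26, adjusted p = 0.00140, edgeR) and -1.56 with Aβ40 fibrils (SE 0.26, adjusted p = 8.86e-04, edgeR). Without control replicate 2 these were -1.72 and -1.86.

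Olig2 had 267, 187 and 184 scaled CPM in the controls, 129, 117 and 119 with Aβ42 fibrils, and 109, 125 and 113 with Aβ40 fibrils. All treated libraries lay below all controls. The log2 changes were -0.80 (SE 0.15, adjusted p = 0.00188, edgeR) and -0.88 (SE 0.15, adjusted p = 0.00116, edgeR).

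Pdgfra was the steadiest of the genes in control astrocytes, where control replicate 2 did not stand apart. It had 212, 219 and 213 scaled CPM in the controls, 124, 129 and 128 with Aβ42 fibrils, and 142, 112 and 121 with Aβ40 fibrils, again with no overlap. The fitted log2 changes were -0.76 (SE 0.12, adjusted p = 4.65e-04, edgeR) and -0.78 (SE 0.12, adjusted p = 4.22e-04, edgeR).

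Cspg4 had 55.9, 28.5 and 54.0 scaled CPM in the controls, 29.6, 25.4 and 22.2 with Aβ42 fibrils, and 22.7, 28.7 and 28.9 with Aβ40 fibrils. Control replicate 2 lay within the range of both treated groups. Against control, the log2 changes were -0.84 (SE 0.24, adjusted p = 0.0163, edgeR) and -0.79 (SE 0.24, adjusted p = 0.0242, edgeR). The Aβ42 call was lost in 4 of 6 fits that each left out 1 library (control replicates 1 and 3, Aβ42 replicates 2 and 3), where the highest adjusted p was 0.0662. The Aβ40 call was lost in 5 of 6, all but the fit without control replicate 2, where the highest adjusted p was 0.0917.

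Sox10 and the 4 myelin genes did not pass the edgeR test in astrocytes. Sox10 ranged from 133 to 244 scaled CPM in the controls, 125 to 204 with Aβ42 fibrils and 135 to 196 with Aβ40 fibrils. The log2 changes were -0.23 (SE 0.24, adjusted p = 0.488, edgeR) and -0.22 (SE 0.24, adjusted p = 0.526, edgeR). Cnp ranged from 413 to 687 scaled CPM in the controls, 651 to 720 with Aβ42 fibrils and 654 to 697 with Aβ40 fibrils, and its log2 fold changes were 0.26 (SE 0.17, adjusted p = 0.253, edgeR) and 0.24 (SE 0.17, adjusted p = 0.299, edgeR). The control range held 5 of the 6 treated values of Sox10 and 2 of the 6 treated values of Cnp.

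Mbp ranged from 274 to 493 scaled CPM in control astrocytes, 264 to 293 with Aβ42 fibrils and 315 to 343 with Aβ40 fibrils. The fitted log2 changes were -0.47 (SE 0.18, adjusted p = 0.0639, edgeR) and -0.25 (SE 0.18, adjusted p = 0.322, edgeR). Control replicate 2 set the lower end of the control range, and without it both passed, at adjusted p values of 2.89e-04 and 0.00574. Mag had 61.2, 27.0 and 55.6 scaled CPM in the controls and log2 fold changes of -0.36 (SE 0.28, adjusted p = 0.359, edgeR) and -0.10 (SE 0.28, adjusted p = 0.815, edgeR). The first passed without control replicate 2, at an adjusted p of 0.0163. Mog had 16 to 66 counts in a library. Its log2 changes were -0.36 (SE 0.26, adjusted p = 0.321, edgeR) and -0.44 (SE 0.26, adjusted p = 0.223, edgeR). Without control replicate 2 the number of lineage genes that fell was 6 with Aβ42 and 5 with Aβ40 fibrils.

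None of the tests used called a difference between the fibrils in astrocytes for the 9 genes. By edgeR 0 of 9 were called, with 0 at an unadjusted p under 0.05 and 0 by DESeq2's Wald test, while 0.0855% of all genes were called, 0.0599% as higher and 0.0257% as lower. The log2 differences of Aβ42 against Aβ40 lay between -0.25 for Mag (SE 0.28) and 0.13 for Olig1 (SE 0.26). The libraries did not overlap for 1 of the 9 genes, Mbp, against 18.9% of all genes.

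**Figure D2:**
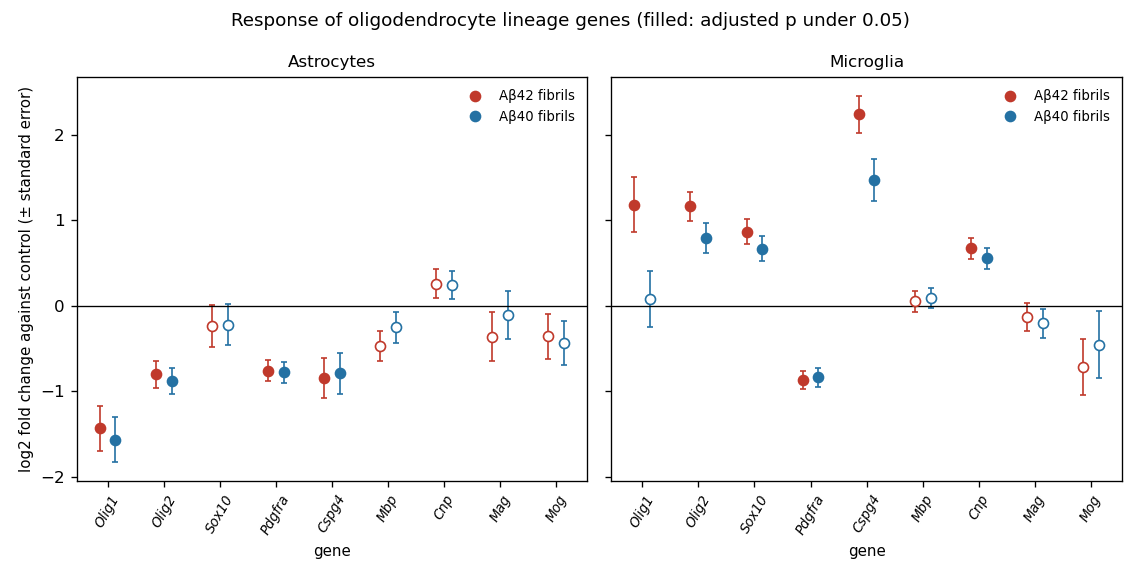
Fitted log2 fold change against control (vertical axis, with the standard error as a bar) of each gene with Aβ42 fibrils in red and Aβ40 fibrils in blue, for astrocytes on the left and microglia on the right; filled points have an adjusted p under 0.05 in edgeR's quasi-likelihood test. Pdgfra is lower in all 4 comparisons, while Olig2 and Cspg4 are lower in astrocytes and higher in microglia.

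Since the cell types were fitted apart, the difference between their responses was tested in a fit of all 18 libraries. The response of Olig1, Olig2, Sox10 and Cspg4 was lower in astrocytes than in microglia for each fibril, 4 of the 9 genes, while 37.3% of all genes tested differed for Aβ42 fibrils, 19.3% as lower, and 32.5% for Aβ40 fibrils, 16% as lower. With Aβ42 fibrils the differences of the log2 fold changes were -3.08 for Cspg4 (SE 0.35, adjusted p = 1.32e-06, edgeR), -2.61 for Olig1 (SE 0.46, adjusted p = 1.95e-04, edgeR) and -1.96 for Olig2 (SE 0.25, adjusted p = 4.79e-06, edgeR). Sox10 had -1.10 (SE 0.30, adjusted p = 0.00652, edgeR). With Aβ40 fibrils they were -2.24 for Cspg4 (SE 0.36, adjusted p = 8.24e-05, edgeR), -1.65 for Olig2 (SE 0.25, adjusted p = 4.09e-05, edgeR) and -1.63 for Olig1 (SE 0.47, adjusted p = 0.0112, edgeR). The Aβ40 value of Sox10, -0.87 (SE 0.30, adjusted p = 0.0303, edgeR), lost its call in 7 of 12 fits that each left out 1 library, with a highest adjusted p of 0.0877.

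Pdgfra, which fell in both cell types, had a difference between the responses of 0.11 with Aβ42 fibrils (SE 0.16, adjusted p = 0.617, edgeR) and 0.07 with Aβ40 fibrils (SE 0.16, adjusted p = 0.773, edgeR). The differences of Mbp, Cnp, Mag and Mog did not pass the edgeR test. They ranged from -0.52 (Mbp) to 0.39 (Mog) with Aβ42 fibrils and from -0.32 (Mbp) to 0.12 (Mag) with Aβ40 fibrils. No lineage gene had a higher response in astrocytes by edgeR, with 0 at an unadjusted p under 0.05 and 0 by DESeq2's Wald test, against 17.9% and 16.5% of all genes. As lower in astrocytes, DESeq2's Wald test called 5 of the 9 responses for Aβ42 fibrils and 4 for Aβ40 fibrils.

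When the 6 groups are put in order on a scale set over all 18 libraries, each gene has its own order. Olig1 was highest in control astrocytes, at 549 ± 221 scaled CPM (SD, n = 3), and lowest in control microglia, at 76.8 ± 10.7 (SD, n = 3). From Aβ42 astrocytes downward, the libraries of each group overlapped with those of the next. Olig2 was highest in control astrocytes, at 199 ± 45.3 (SD, n = 3), and lowest in control microglia, at 67.2 ± 16.4 (SD, n = 3), and Aβ42 microglia came in between at 150 ± 26.4 (SD, n = 3), overlapping the astrocyte controls. Cspg4 was nearly level in control astrocytes, at 43.1 ± 14.2 (SD, n = 3), and Aβ42 microglia, at 42.5 ± 11.1 (SD, n = 3). Control microglia stood alone at the bottom of the Cspg4 order with 9.04 ± 2.18 (SD, n = 3).

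Pdgfra was highest in control astrocytes at 200 ± 4.25 (SD, n = 3), followed by control microglia at 133 ± 10.4 (SD, n = 3), and lowest in both treated microglia groups, at 74.3 ± 5.61 and 74.2 ± 4.62 (SD, n = 3). Mbp and Mag were ordered by cell type first. Mbp in the 3 microglia groups, at 979 to 1043, lay apart from the astrocyte groups, at 265 to 362. Mag followed the same division, with 102 to 118 in microglia groups and 35.5 to 44.8 in astrocyte groups. For Sox10 every group overlapped with the next, from Aβ42 microglia at 246 ± 47.4 (SD, n = 3) to control microglia at 134 ± 18.6 (SD, n = 3). The same held for Mog, with group means of 3.17 to 6.63. Cnp was highest in the treated microglia, at 973 ± 134 and 886 ± 117 (SD, n = 3), and both lay above the 4 other groups, at 537 to 654.

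Ratios of counts within a library do not depend on how libraries are scaled, and they show whether genes kept step. They are not ratios of transcript number, since the genes differ in length. In microglia the ratio of Sox10 to Pdgfra counts was 1.01 ± 0.0656 (SD, n = 3) in the controls. After Aβ42 treatment it was 3.35 ± 0.817 (SD, n = 3), and after Aβ40 treatment 2.86 ± 0.166 (SD, n = 3). The lowest treated value, 2.45, lay above the highest control, 1.04. The ratio of Cspg4 to Pdgfra went from 0.0679 ± 0.0141 (SD, n = 3) to 0.580 ± 0.179 (SD, n = 3) and 0.335 ± 0.0643 (SD, n = 3), although both genes mark the progenitor surface. In astrocytes, where both genes fell, this ratio was 0.216 ± 0.0745, 0.203 ± 0.0334 and 0.218 ± 0.0518 (SD, n = 3 each), and the groups overlapped.

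Among the myelin genes, Mag fell behind Cnp in microglia. The ratio of Mag to Cnp was 0.197 ± 0.0145 in the controls, 0.110 ± 0.0198 with Aβ42 fibrils and 0.116 ± 0.00342 with Aβ40 fibrils (SD, n = 3 each), with no overlap between control and treated libraries. In astrocytes it was 0.0812 ± 0.0135, 0.0541 ± 0.00744 and 0.0653 ± 0.0130 (SD, n = 3 each). The Aβ42 libraries lay below the controls, from 0.0467 to 0.0616 against 0.0655 to 0.0892, and the Aβ40 libraries overlapped with them. The ratio of Mbp to Olig2 was 15.1 ± 3.11 in control microglia, 6.84 ± 0.247 with Aβ42 and 9.09 ± 1.3 with Aβ40 fibrils (SD, n = 3 each). In astrocytes it moved the other way, from 1.82 ± 0.340 to 2.30 ± 0.0964 and 2.82 ± 0.0700 (SD, n = 3 each).

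The ratio of Olig1 to Olig2 was 1.17 ± 0.188 in control microglia and 0.701 ± 0.0310 with Aβ40 fibrils (SD, n = 3 each). With Aβ42 fibrils it was 1.11 ± 0.513 (SD, n = 3), from 0.524 in replicate 1 to 1.48 in the highest replicate. In astrocytes it went from 2.77 ± 1.08 (SD, n = 3), with 1.69 in control replicate 2, to 1.79 ± 0.216 and 1.73 ± 0.176 (SD, n = 3 each). An exact permutation test, two-sided, cannot go below p = 0.1 for 3 libraries in each group, so no test of the ratios is given.

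**Figure D3:**
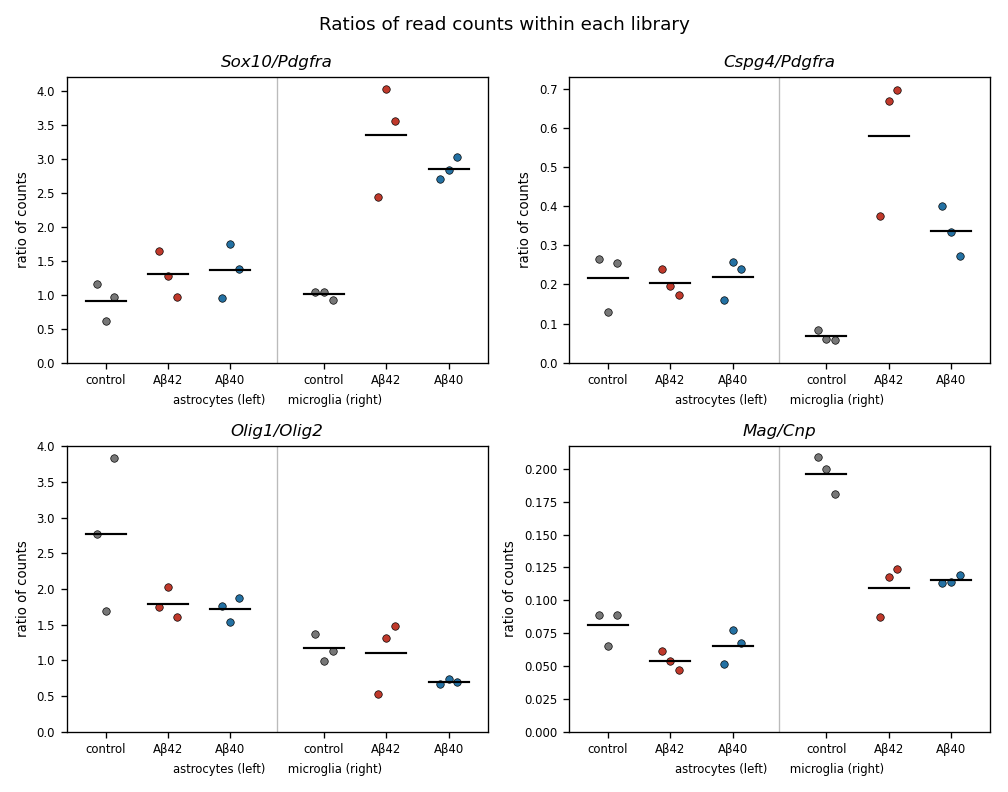
Ratio of the read counts of 2 genes in each library (points, vertical axis from 0), with the group mean as a bar, for 4 gene pairs in control, Aβ42 and Aβ40 groups of astrocytes (left) and microglia (right). Sox10 to Pdgfra and Cspg4 to Pdgfra are higher in every treated microglia library than in every microglia control, Mag to Cnp is lower, and 1 Aβ42 library has an Olig1 to Olig2 ratio of 0.524.

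Other genes of the lineage were taken from lists of progenitor genes, genes of newly formed oligodendrocytes and myelin genes. In astrocytes, 7 of 14 progenitor genes tested fell and 1 rose with each fibril, and the median log2 change of the list was -0.54 for Aβ42 and -0.57 for Aβ40. The median of all genes was near 0 in both, at -0.0047 and 0.0017. Among all genes tested, 20.4% fell and 16.5% rose with Aβ42 fibrils, and 18.4% fell and 14.9% rose with Aβ40 fibrils, which are the shares beside which the counts of each list in astrocytes stand. Of 17 myelin genes tested, 6 fell with each fibril, while 3 rose with Aβ42 and 2 with Aβ40 fibrils, so that the rises were near the shares of all genes. Of 9 genes of newly formed cells, 3 fell and 1 rose with Aβ42 fibrils, and 1 fell and 1 rose with Aβ40 fibrils.

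Named by the smallest p-values at 2-fold or more, the progenitor genes given here for the astrocyte cultures fell. Cspg5, the gene of the proteoglycan neuroglycan C, went from 131 ± 17.5 scaled CPM (SD, n = 3) to 23.6 ± 0.849 with Aβ42 and 22.8 ± 2.05 with Aβ40 fibrils (SD, n = 3 each). Against control, the log2 changes were -2.47 (SE 0.14, adjusted p = 2.81e-07, edgeR) and -2.51 (SE 0.14, adjusted p = 2.64e-07, edgeR). Ptprz1, a receptor phosphatase of progenitors that astrocytes also carry, had -1.09 (SE 0.17, adjusted p = 5.44e-04, edgeR) and -1.22 (SE 0.17, adjusted p = 2.70e-04, edgeR). The protocadherin gene Pcdh15 was named with Aβ40 fibrils at -1.12 (SE 0.20, adjusted p = 0.00143, edgeR). Ptprz1 held most of the summed level of the progenitor list in astrocytes. Without it the sum was 953 to 977 scaled CPM in the controls, 546 to 601 with Aβ42 fibrils and 572 to 589 with Aβ40 fibrils, with no overlap between treated and control libraries. Tcf7l2, a Wnt effector of newly formed oligodendrocytes, was -1.17 with Aβ42 fibrils (SE 0.18, adjusted p = 4.12e-04, edgeR).

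The myelin list of the astrocyte cultures held changes in both directions. Enpp2, which encodes the secreted enzyme autotaxin, rose from 57.0 ± 21.6 scaled CPM (SD, n = 3) to 182 ± 17.4 and 146 ± 13.5 (SD, n = 3 each), or log2 changes of 1.69 (SE 0.23, adjusted p = 1.68e-04, edgeR) and 1.37 (SE 0.23, adjusted p = 8.11e-04, edgeR). Aspa, the aspartoacylase of oligodendrocytes, fell from 13.9 ± 3.77 (SD, n = 3) to 4.34 ± 0.724 and 5.14 ± 1.67 (SD, n = 3 each), or log2 changes of -1.66 and -1.44. Mal, a membrane protein of myelin, fell from 4.62 ± 1.55 (SD, n = 3) to 1.23 ± 0.0770 and 1.66 ± 0.357 (SD, n = 3 each).

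In microglia, 4 of 14 progenitor genes rose and 3 fell with Aβ42 fibrils, and 6 rose and 1 fell with Aβ40 fibrils. The medians were 0.16 and 0.58 on the log2 scale, beside 0.0096 and 0.0054 for all genes. Among all genes tested, 27.1% rose and 26.6% fell with Aβ42 fibrils, and 19.6% rose and 21.4% fell with Aβ40 fibrils. The progenitor counts with Aβ42 fibrils were near these shares. Neu4, a sialidase, went from 1.15 ± 0.519 scaled CPM (SD, n = 3) to 10.6 ± 5.59 and 7.48 ± 2.54 (SD, n = 3 each), or log2 changes of 3.44 (SE 0.43, adjusted p = 3.18e-05, edgeR) and 2.84 (SE 0.51, adjusted p = 6.90e-04, edgeR). Sox8, a close relative of Sox10, rose from 42.7 ± 4.06 (SD, n = 3) to 89.1 ± 11.9 (SD, n = 3) with Aβ42 fibrils, which is a log2 change of 1.07 (SE 0.14, adjusted p = 5.62e-05, edgeR). Matn4, which encodes a matrix protein, had log2 changes of -1.28 (SE 0.23, adjusted p = 5.26e-04, edgeR) and -2.65 (SE 0.36, adjusted p = 8.68e-05, edgeR).

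Of 10 genes of newly formed oligodendrocytes tested in microglia, 2 rose and 1 fell with Aβ42 fibrils, and with Aβ40 fibrils 5 rose and 5 did not pass the test. Both Aβ42 counts were below the shares of all genes, 27.1% and 26.6%, and with Aβ40 fibrils 19.6% of all genes rose and 21.4% fell. Myrf, the membrane-bound factor that turns on myelin genes, rose from 113 ± 8.84 (SD, n = 3) to 235 ± 30.2 (SD, n = 3) with Aβ40 fibrils, which is a log2 change of 1.06 (SE 0.12, adjusted p = 2.46e-05, edgeR). Tmem2, a cell surface protein that is not particular to the lineage, rose from 48.8 ± 2.49 (SD, n = 3) to 435 ± 82.4 and 555 ± 34.9 (SD, n = 3 each), or log2 changes of 3.15 and 3.51.

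Of 16 myelin genes tested in microglia, 7 rose and 4 fell with Aβ42 fibrils, and 4 rose and 3 fell with Aβ40 fibrils. Beside 27.1% of all genes higher and 26.6% lower with Aβ42 fibrils, and 19.6% and 21.4% with Aβ40 fibrils, all but the Aβ42 rises were near the shares of all genes. Aspa fell from 31.2 ± 2.77 scaled CPM (SD, n = 3) to 7.04 ± 0.632 and 10.2 ± 0.437 (SD, n = 3 each), or log2 changes of -2.12 (SE 0.14, adjusted p = 1.31e-07, edgeR) and -1.60 (SE 0.15, adjusted p = 4.39e-06, edgeR). Mobp, a basic protein of compact myelin, fell with Aβ42 fibrils from 19.5 ± 1.3 (SD, n = 3) to 7.79 ± 1.68 (SD, n = 3), which is a log2 change of -1.42 (SE 0.17, adjusted p = 1.86e-05, edgeR). Hapln2, a link protein of the nodes, rose with Aβ42 fibrils by 2.08 (SE 0.39, adjusted p = 7.70e-04, edgeR) from a low 0.877 ± 0.0911 scaled CPM (SD, n = 3). Mal rose with Aβ40 fibrils by 1.11 (SE 0.23, adjusted p = 0.00194, edgeR).

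Signals known to act on the lineage were read from a list of ligands, receptors and targets. In astrocytes 4 of 15 tested rose and 4 fell with each fibril, and in microglia 6 of 14 rose and 2 fell with Aβ42 fibrils and 7 rose and 2 fell with Aβ40 fibrils. The shares of all genes that rose and fell were 16.5% and 20.4% in Aβ42 astrocytes, 14.9% and 18.4% in Aβ40 astrocytes, 27.1% and 26.6% in Aβ42 microglia, and 19.6% and 21.4% in Aβ40 microglia. Igf1, a growth factor that favours oligodendrocyte survival, went from 495 ± 21.6 scaled CPM (SD, n = 3) in control microglia to 6.85 ± 2.70 and 10.3 ± 1.16 (SD, n = 3 each), or log2 changes of -6.35 (SE 0.24, adjusted p = 1.36e-09, edgeR) and -5.60 (SE 0.24, adjusted p = 3.95e-09, edgeR). In astrocytes it went from 21.6 ± 7.32 (SD, n = 3) to 0.530 ± 0.256 and 0.494 ± 0.216 (SD, n = 3 each), with adjusted p values of 1.98e-06 and 1.47e-06 in edgeR.

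Lif, a cytokine that promotes maturation, rose in astrocytes from 5.15 ± 0.666 scaled CPM (SD, n = 3) to 91.8 ± 7.55 and 46.7 ± 1.61 (SD, n = 3 each), or log2 changes of 4.20 and 3.22. In microglia it rose from 0.0785 ± 0.136 to 9.76 ± 2.65 with Aβ42 fibrils (SD, n = 3 each, adjusted p = 3.28e-06, edgeR), and no fold is given because the control counts were under the detection limit. Jag1, a Notch ligand, rose in astrocytes by 2.39 and 1.99 on the log2 scale. Bmp2, which holds back oligodendrocyte maturation, rose in microglia by 2.92 (SE 0.27, adjusted p = 2.81e-06, edgeR) and 2.53 (SE 0.30, adjusted p = 2.45e-05, edgeR). Pdgfb, which encodes a ligand of the platelet-derived growth factor receptors, was named in microglia with Aβ40 fibrils at -3.50 (SE 0.38, adjusted p = 1.25e-05, edgeR).

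Markers of other cells moved in the same libraries, and their part in the changes of the lineage genes was not tested. In astrocyte cultures the 10 microglia markers summed to 363 to 445 scaled CPM in the controls, 57.6 to 80.0 with Aβ42 fibrils and 32.5 to 45.4 with Aβ40 fibrils, and 9 and 10 of the 10 fell. The 8 neuron markers summed to 576 to 629, 299 to 301 and 388 to 405, and 6 of 8 fell with each fibril. The 10 mural cell markers summed to 811 to 1298, 136 to 166 and 248 to 343, most of it Tagln, with 4 of 6 tested lower, while Higd1b was at 0 in every library. The astrocyte markers themselves summed to 10102 to 12649, 7296 to 7478 and 7986 to 8221, with 6 of 10 lower and 2 and 3 higher. Of the fibroblast markers 5 of 11 fell and 1 rose with each fibril, and of the Schwann cell markers 4 of 6 fell. Of 6 endothelial markers, 3 fell and 1 rose with Aβ42 fibrils, and 2 fell with Aβ40 fibrils. Among all genes tested, 20.4% fell and 16.5% rose with Aβ42 fibrils, and 18.4% fell and 14.9% rose with Aβ40 fibrils.

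In microglia cultures the 10 microglia markers summed to 7684 to 8920 scaled CPM in the controls, 1960 to 3170 with Aβ42 fibrils and 2793 to 3438 with Aβ40 fibrils, and 8 and 9 of the 10 fell. The 10 astrocyte markers summed to 1338 to 1514, 814 to 905 and 914 to 984, with 3 of 9 tested higher and 2 lower with each fibril. Glul, the glutamine synthetase gene, carried this difference, and without it the sums were 247 to 277, 241 to 281 and 238 to 261, which overlapped. The 12 fibroblast markers summed to 772 to 1072, 934 to 1234 and 1104 to 1172, most of it the fibronectin gene Fn1. Without Fn1 they summed to 91.2 to 123, 197 to 248 and 179 to 195, with every treated library above every control. Of 10 tested, 6 rose and 1 fell with Aβ42 fibrils and 5 rose and 3 fell with Aβ40 fibrils, among them Dcn, from 0.427 to 71.1 and 64.6 scaled CPM. The 8 neuron markers summed to 571 to 639, 591 to 828 and 863 to 901, with 2 and 3 of 7 higher and the others not called. The mural markers Rgs5, Kcnj8 and Higd1b and the endothelial marker Cldn5 were at 0 in all 9 microglia libraries. The mural marker Acta2 went from 29.7 to 1.57 and 1.85 scaled CPM, while the mural marker Anpep went from 184 to 290 and 275. Of 4 mural markers tested, 3 fell and 1 rose with each fibril. Of 6 endothelial markers, 4 fell with Aβ42 fibrils, and 3 fell and 1 rose with Aβ40 fibrils. The 7 Schwann cell markers listed summed to 1322 to 1504, 1265 to 1498 and 1391 to 1612, with 3 of 6 tested higher and 2 lower with each fibril. Among all genes tested, 27.1% rose and 26.6% fell with Aβ42 fibrils, and 19.6% rose and 21.4% fell with Aβ40 fibrils. The astrocyte marker counts and the neuron marker rises with Aβ42 fibrils were near these shares.

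The 9 lineage genes together made up 0.231% of the counts on genes in control astrocytes, while the shares after Aβ42 and Aβ40 treatment were 0.164% and 0.167%. In microglia they made up 0.193%, 0.248% and 0.227%. Their summed level was 2270 ± 602, 1668 ± 121 and 1687 ± 71.8 scaled CPM in astrocytes and 1913 ± 75.9, 2485 ± 386 and 2288 ± 246 in microglia (SD, n = 3 each). Control replicate 2 of the astrocytes, at 1600, lay within the treated range. Without Cnp, the gene with the highest counts in astrocytes, that library had 1187 and lay above all treated libraries, at 885 to 1053. All treated microglia libraries lay above all controls in scaled CPM. As a share of the counts, control replicate 2 of the microglia, at 0.203%, lay above Aβ42 replicate 1 at 0.200% and Aβ40 replicate 3 at 0.201%. In microglia Mbp and Cnp were the 2 genes with the highest counts, so the sum follows them more than the transcription factors.

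**Figure D4:**
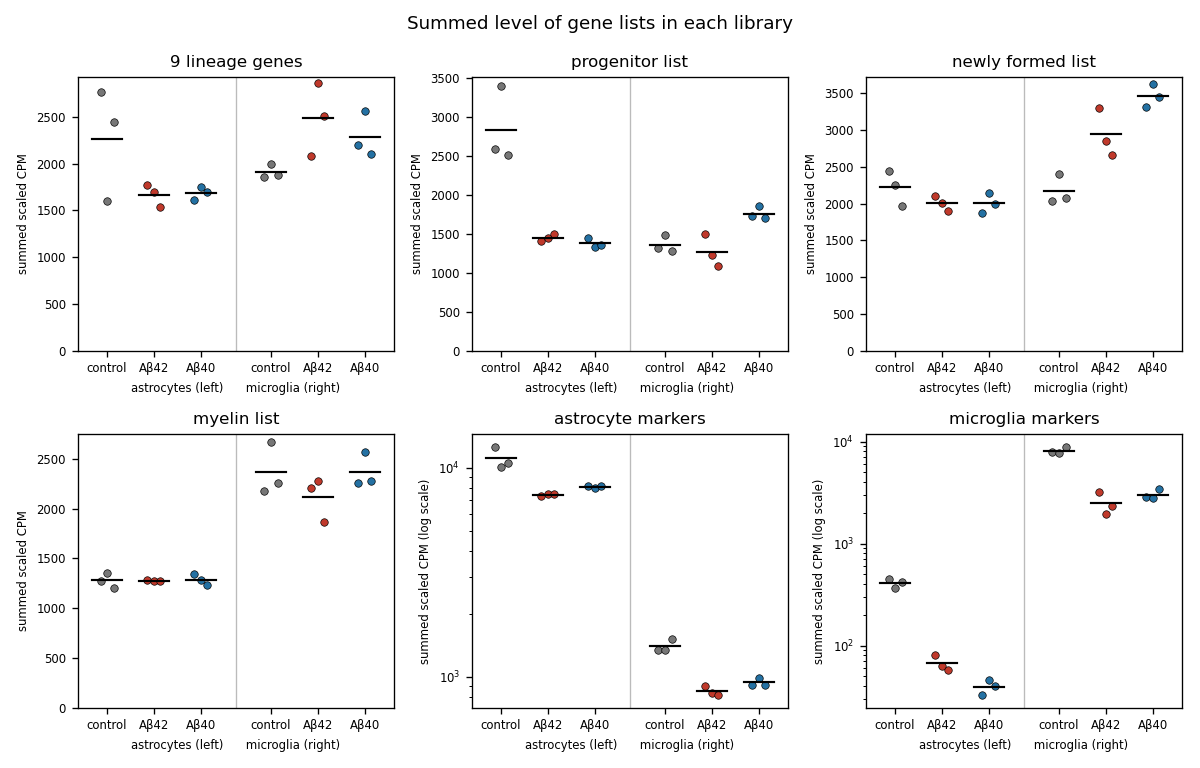
Summed scaled CPM of 6 gene lists in each library (points) with the group mean as a bar; the vertical axes start at 0 for the lineage lists and are logarithmic for the astrocyte and microglia markers. The progenitor list falls from 2828 in control astrocytes to 1449 and 1378 in treated ones, with Ptprz1 at 1865 of the control sum, and the microglia markers fall with fibrils in both cell types.

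The genes whose pattern over the 9 libraries of a cell type was most like each lineage gene were found by Pearson's r of log2(scaled CPM + 1). The values are a description of 9 libraries that differ in treatment and depth and have no p-value. In astrocytes the nearest genes were Rab31 for Olig1 (r = 0.995), Gng3 for Olig2 (r = 0.997), Atxn2l for Sox10 (r = 0.987), Bard1 for Pdgfra (r = 0.993) and Bcan for Cspg4 (r = 0.992). Bcan, the brevican gene, was itself on the progenitor list. For the myelin genes they were Csrp1 for Mbp (r = 0.996), Mrps34 for Cnp (r = 0.997), Flot1 for Mag (r = 0.995) and Pcdhac2 for Mog (r = 0.95).

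In microglia the nearest genes were Slc22a17 for Olig1 (r = 0.992), Sema5b for Olig2 (r = 0.988), Kif26a for Sox10 (r = 0.989), Stat5a for Pdgfra (r = 0.992) and Gpr107 for Cspg4 (r = 0.993). Those of the myelin genes were Oaz2 for Mbp (r = 0.923), Bmp6 for Cnp (r = 0.991), Wdr6 for Mag (r = 0.986) and Atoh8 for Mog (r = 0.967). The next gene after Bmp6 for Cnp was Pllp (r = 0.977), which encodes the myelin protein plasmolipin. The smooth muscle actin gene Acta2, a mural marker, was second for Pdgfra (r = 0.991).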

How the data were processed

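RNA was sequenced from 18 libraries of primary rat glia. The authors aligned the reads with STAR to rn5, used Salmon for quantification and also named DESeq2, and they deposited 1 table of raw read counts per library. The strand setting and the annotation of the counting are not given in the sources used here, so reads of overlapping genes cannot be told apart. Rows for reads on no gene or on several genes (21.7% to 34.2% of a library) were left out.

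The lineage genes and the lists were chosen with earlier results of these data known. Counts of each cell type were scaled by TMM, filtered by filterByExpr and fitted together for 9 libraries (all 18 for differences between cell types, on the symbols listed for both) with glmQLFit and glmQLFTest of edgeR 4.0.16 in R 4.3.3, without covariates. P-values were adjusted over all genes tested, and a gene was called at an adjusted p under 0.05, at any fold. Each edgeR SE was derived from the test, as the size of the log2 fold change over the square root of the F statistic. All 9 genes are named throughout. From the other lineage lists, the 3 called genes of 2-fold or more with the smallest p-values are named, except where a gene is not reported here. In simulated counts, the fit called 67% of 200 genes set to differ 2-fold in the astrocyte Aβ42 comparison, 88% in that of microglia and 69% between the control cell types. It also called 7, 13 and 6 unchanged genes. Only those 200 genes differed in the simulation, while 37%, 53.7% and 68.8% of genes were called in the data. The adjustment depends on that share, so the simulated rates need not hold for the tests reported here. The alternatives were library totals, DESeq2 1.42.0 (size factors, and the Wald test), no filter, 10 counts in every library, the replicate number as a block, the 2 compared groups alone, and leaving out each replicate.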

Additional observations from a re-analysis of the deposited data

Results flagged for a closer look

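The responses of 4 genes to the fibrils differed between astrocytes and microglia by a test of the difference itself, an interaction term in the edgeR fit of 18 libraries, adjusted over 11581 genes. For Aβ42 fibrils the log2 response in astrocytes minus that in microglia was -2.61 for Olig1, -1.96 for Olig2, -1.10 for Sox10 and -3.08 for Cspg4. For Aβ40 fibrils it was -1.63 for Olig1, -1.65 for Olig2, -0.87 for Sox10 and -2.24 for Cspg4. Olig2 and Cspg4 were called lower in astrocytes and higher in microglia with both fibrils, and Olig1 with Aβ42 fibrils, while Sox10 was called higher in microglia and was not called in astrocytes.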

How the results depend on the processing

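Of the results for single genes, 32 of the fits that left out 1 library and 4 other alternatives changed a direction, all of genes that were not called. Between control cell types Cnp went to 0.10 with library totals and 0.036 with the replicate block, and the difference of the Aβ40 responses of Mog went to -0.013 with library totals and -0.026 with DESeq2 size factors. Over fits without 1 library, log2 values ranged from -0.36 to 0.092 for Mag with Aβ40 fibrils in astrocytes. For Aβ42 against Aβ40 in astrocytes they ranged from -0.18 to 0.14 for Sox10, -0.055 to 0.12 for Pdgfra, -0.16 to 0.031 for Cspg4, -0.012 to 0.052 for Cnp and -0.16 to 0.24 for Mog. With Aβ42 fibrils in microglia they ranged from -0.044 to 0.14 for Mbp and -0.28 to 0.043 for Mag, and with Aβ40 fibrils from -0.016 to 0.15 for Mbp. For Aβ42 against Aβ40 in microglia they ranged from -0.10 to 0.031 for Pdgfra, -0.14 to 0.064 for Mbp, -0.075 to 0.24 for Mag and -0.53 to 0.17 for Mog. Between control cell types Cnp ranged from -0.25 to 0.020, and the differences of the Aβ40 responses from -0.042 to 0.15 for Pdgfra, -0.15 to 0.27 for Mag and -0.21 to 0.48 for Mog.

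Libraries with the same replicate number did not generally deviate together (r of -0.64 to 0.44 in astrocytes and -0.22 to 0.26 in microglia). Of 9 such pairs, 2 in astrocytes and 1 in microglia had r over 0.1. With 3 libraries in each group, these values cannot exclude a pairing by number. Some astrocyte libraries of different numbers and groups did deviate together, with r of -0.57 to 0.62 and 11 of 18 pairs over 0.1. Control replicate 2 had r of 0.62 with Aβ42 replicate 3 and 0.57 with Aβ40 replicate 1. With the replicate block 2 lineage genes fell with Aβ42 fibrils in microglia in place of 1, and 0 in place of 2 were higher with Aβ42 than Aβ40 fibrils. That last number was also 0 in the fit of the 2 groups alone and 0 to 5 in fits without 1 library, and the number that fell was 1 to 2 in such fits. The Aβ40 call of Cspg4 in astrocytes was lost with the block (adjusted p = 0.0599, edgeR) and in the fit of the 2 groups alone (adjusted p = 0.0509, edgeR), and the Aβ40 difference of Sox10 with the block (adjusted p = 0.0559, edgeR). Over all genes, Aβ42 against Aβ40 fibrils in microglia had 1222 higher and 976 lower, 400 and 352 with the block, and 59 and 47 in the fit of the 2 groups alone. In astrocytes it had 7 and 3, 80 and 61 with DESeq2's Wald test, 129 and 136 in the fit of the 2 groups alone, and 0 and 0 with the block. The summed level without the highest counted gene was 1187 to 2079 in the control astrocyte libraries, 978 and 1006 on average in Aβ42 and Aβ40 astrocytes and 1032, 1573 and 1350 in control, Aβ42 and Aβ40 microglia. With TMM over all 18 libraries the sum of all 9 genes was 1594 in Aβ40 astrocytes and 2127 in control microglia. In Aβ40 microglia that sum was 2543. With TMM within the cell type these 9-gene sums were 1687, 1913 and 2288. The cause of these changes was not tested. Depth limits Mog most, with 1 to 90 counts in a microglia library.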
